A study of Mus musculus with 6 samples.

Results

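The 39 genes described here build and regulate the lipids of the myelin membrane. They were listed by name as enzymes and regulators of cholesterol, galactolipid and long fatty acid synthesis. The rule uses no measured value, although earlier results of these data were known when the list was made. By role they fall into 18 enzymes of cholesterol synthesis, 4 regulators of sterol metabolism, 9 enzymes of sphingolipid synthesis, and 8 genes of fatty acid synthesis and acetyl supply. All 39 were among the 12894 genes that could be tested. RNA came from the ventral side of the spinal cord at lumbar level in C57BL/6 mice aged 5 weeks, either wild type (WT) or Gde2KO, with 3 libraries of each genotype. Gde2KO mice lack function of Gdpd5, whose product GDE2 is a membrane enzyme that sheds proteins from their glycosylphosphatidylinositol anchors. The labels name no Cre line, promoter or other treatment, give no sex, and do not state that each library came from a separate animal. The p-values therefore measure the spread between these libraries, which may be technical in part.

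Cholesterol is made from acetyl-CoA through mevalonate, isoprenoid units, squalene and lanosterol, and the nervous system makes its own because blood cholesterol hardly crosses into it. The pathway is switched on by SREBP transcription factors, which are held in the endoplasmic reticulum by INSIG proteins when sterols are plentiful. Oligodendrocytes, the myelin-forming cells, make large amounts of cholesterol and of galactosylceramide and sulfatide, sphingolipids with very long and often hydroxylated fatty acids. The study as titled asks how GDE2-dependent Wnt signalling in neurons bears on the maturation of these cells.

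RefSeq promoters on GRCm38.p6 were available for 32 of the 39 genes, 44 promoters in all because some genes have several starts. None was available for Fdps, Fdft1, Sqle, Stard4, Fa2h, Scd1 or Scd2, so the counts below do not cover these genes. The 200 bases before each start were searched on both strands for a sterol response element (TCACNCCAC), a CCAAT box (CCAAT), a GC box (GGGCGG) and an E-box (CACGTG), and matches may overlap one another. The sterol response element, the site bound by SREBP factors, occurred as these letters in 1 of the 44, the promoter of Hmgcs1, and in 0.858% of all 32851 promoters. A CCAAT box was present in 59.1% of the 44 promoters and 29.3% of all, a GC box in 63.6% and 31.0%, and an E-box in 15.9% and 5.26%. The first sequence below is shown because it holds the single sterol response element match. The second lies before the downstream start of Srebf1, the gene of SREBP-1, whose use relative to the upstream start is measured below. The Hmgcs1 stretch is chr13:119690151-119690350 on the plus strand and the Srebf1 stretch is chr11:60210472-60210671 on the minus strand. Both are written 5′ to 3′ with every motif match in capitals. A match describes the letters and does not show that a factor binds there, and no match says only that these letters are not in the window.
Hmgcs1 promoter: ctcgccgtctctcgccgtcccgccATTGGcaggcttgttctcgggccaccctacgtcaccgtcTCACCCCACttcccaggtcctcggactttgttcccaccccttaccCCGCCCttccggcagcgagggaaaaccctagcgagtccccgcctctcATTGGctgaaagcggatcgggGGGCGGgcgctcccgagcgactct
Srebf1 downstream promoter: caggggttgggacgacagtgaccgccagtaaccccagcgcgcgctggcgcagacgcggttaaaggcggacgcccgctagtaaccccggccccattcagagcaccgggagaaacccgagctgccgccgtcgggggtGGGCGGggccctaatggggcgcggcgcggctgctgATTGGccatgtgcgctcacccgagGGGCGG

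Scd1 and Scd2, neighbours on chromosome 19 that encode stearoyl-CoA desaturases, are the pair among the 39 whose coding sequences were compared. Their GENCODE coding sequences of 1065 and 1074 bases were identical at 89.6% of aligned positions. The longest identical run, of 147 bases, begins at base 523 of the Scd1 and base 532 of the Scd2 coding sequence. It is shown because reads that lie wholly within it cannot be told apart between the genes. The deposited assemblies do not say how such reads were shared out.
Scd1 and Scd2 shared coding run: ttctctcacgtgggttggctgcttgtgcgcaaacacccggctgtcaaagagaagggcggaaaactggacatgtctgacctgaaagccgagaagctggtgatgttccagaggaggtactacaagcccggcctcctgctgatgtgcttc

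Each library held 31899 to 33791 assembled transcripts, and relative depth, with 1 as the average, ran from 0.91 to 1.14. Gdpd5 had 5.38, 6.54 and 5.95 FPKM in WT libraries against 1.24, 1.20 and 0.946 in those of Gde2KO, low in every library so labelled (limma adjusted p = 0.00526). FPKM divides fragments by the length of the assembled transcript and by library size. Levels of different genes can be set side by side only roughly, since some moved with the extent of the assembly, as described below. Sex-linked genes set Gde2KO replicate 1 apart, with Ddx3y of chromosome Y at 21.7 FPKM and Xist listed at 0 there, while elsewhere Ddx3y was listed at 0 and Xist between 1.22 and 2.49 FPKM. Nsdhl and Ebp are the members on chromosome X. Gde2KO replicate 3 had the fewest transcripts and the highest depth. No member passed the test with either library left out.

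No member passed the test between the genotypes. With limma on log2(FPKM + 0.1) and p-values adjusted over all genes tested, 15 genes passed, or 0.116% of them, and 0 of the 39 members. The smallest adjusted p among the members was 0.882. Of the members 19 were higher and 20 lower in Gde2KO, with a median log2 difference of -0.006 against 0.0 over all genes tested. The median size of the difference without its sign was 0.069 for the members and 0.095 for all genes. Before adjustment 1 member had a p under 0.05, against 3.91% of all genes, or 2.25% in its direction, lower in Gde2KO. The libraries of the genotypes did not overlap for 1 member, or 2.56%, against 10.9% of all genes and 5.79% in its direction, and it was the same gene, Elovl7. For 33 members, or 84.6%, the 95% interval of the difference lay wholly within 1.5-fold in either direction, against 72.8% of all genes. The lowest mean level of a member was 4.70 FPKM, whereas genes were tested from 1 FPKM, so these shares are not matched for level. In the lists of other cholesterol, sphingolipid and fatty acid genes described below, the share was 92%, 83.9% and 75%. In bulk tissue, fewer cells of a type and less RNA per cell cannot be told apart.

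**Figure D1:**
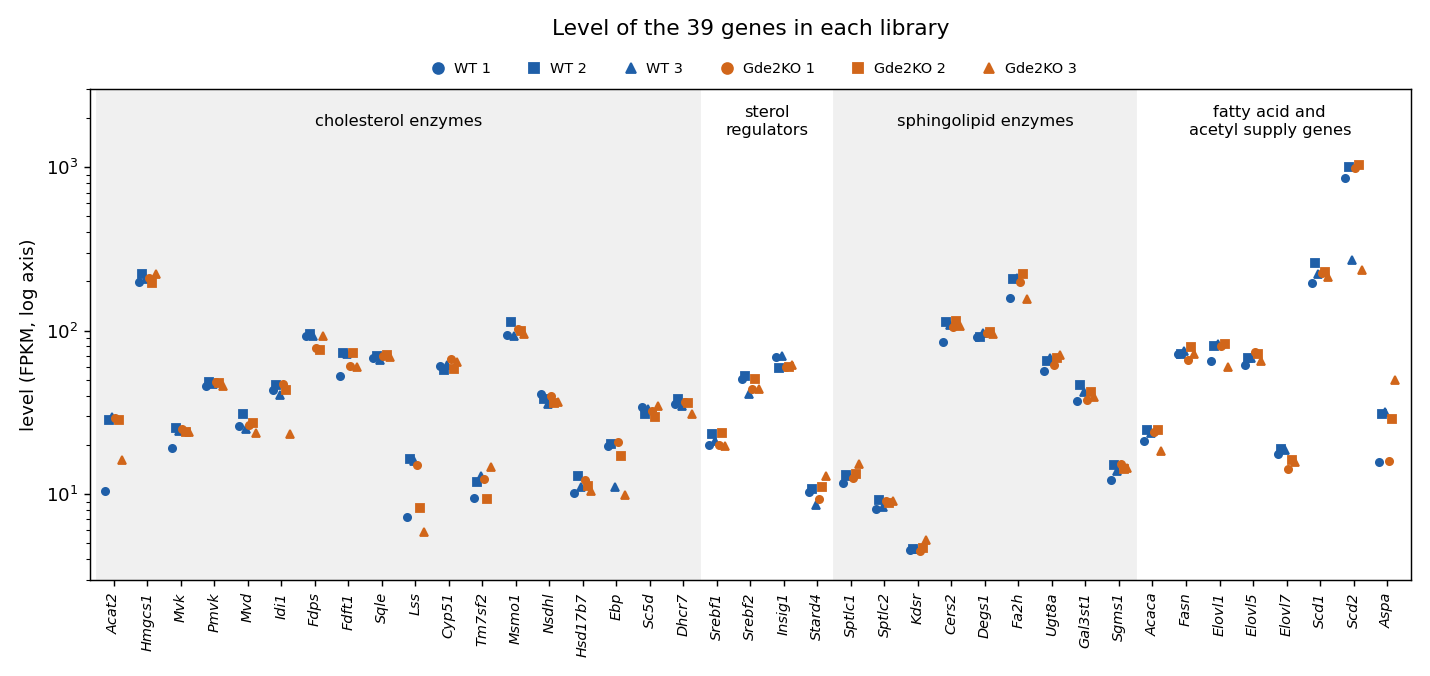
Level of each of the 39 genes in the 6 libraries, in FPKM on a log axis, grouped by role, with WT in blue, Gde2KO in orange and the replicate given by the symbol. Scd2 reaches 1030 FPKM and Kdsr lies near 4.7 FPKM, and only Elovl7 has its genotypes apart.

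Of the 18 cholesterol enzymes 7 were higher and 11 lower in Gde2KO, with a median log2 difference of -0.02, and 0 passed the test. Their mean levels ran from 11.3 to 209 FPKM. Hmgcs1, the cytosolic HMG-CoA synthase that opens the mevalonate route, was the most abundant. It had 198, 221 and 207 FPKM in WT libraries against 211, 194 and 221 in those of Gde2KO. These overlap throughout, at a fold of 1.0 (95% interval 0.866 to 1.15). Sqle, the squalene epoxidase that is a control point of the pathway, was close in all libraries, the highest 1.07 times the lowest. It had 68.3, 69.8 and 66.6 FPKM in WT libraries against 69.6, 71.4 and 68.7 in those of Gde2KO, a fold of 1.03 (0.93 to 1.13). Dhcr7, which makes cholesterol from its last precursor, had 35.5, 38.1 and 34.4 FPKM in WT libraries against 36.7, 35.9 and 30.7 in those of Gde2KO. Its fold was 0.955 (0.817 to 1.12), with Gde2KO replicate 3 the lowest library. Dhcr7 is the one member on the chromosome of Gdpd5, 44.4 Mb away. The least abundant enzyme, the sterol ketoreductase Hsd17b7, ran from 10.2 to 12.9 FPKM in WT and from 10.4 to 12.2 in Gde2KO.

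Fdps, which joins isoprenoid units into farnesyl pyrophosphate, had the smallest unadjusted p of the cholesterol enzymes. It had 92.4, 95.04 and 92.2 FPKM in WT libraries against 78.4, 76.2 and 92.3 in those of Gde2KO. Replicates 1 and 2 of Gde2KO were below all WT libraries and replicate 3 was among them, at a fold of 0.88 (0.754 to 1.03; limma adjusted p = 0.882, unadjusted 0.0899). Fdps has 1124 exonic bases in common with the overlapping gene model Gm43738 on its strand, and its level rests on 291 counted bases. Over the 238 of these that were assembled in all 6 libraries, Fdps ran from 92.4 to 95.3 FPKM in WT and from 93.4 to 108.5 in Gde2KO, so the lower Gde2KO values were not seen there. The mevalonate enzymes Mvk, Pmvk and Mvd and the sterol enzymes Cyp51, Msmo1, Nsdhl and Sc5d had mean levels between 23.7 and 99.4 FPKM. The log2 differences of these 7 ran from -0.08 for Mvd to 0.09 for Mvk. Tm7sf2, a sterol reductase with 532 exonic bases in common with Vps51, had a mean of 11.4 ± 1.77 FPKM in WT libraries against 12.1 ± 2.64 in Gde2KO libraries (SD, 3 libraries each). In WT replicate 1 and Gde2KO replicate 2 no assembled transcript was assigned to Tm7sf2, and its level there comes from overlapping transcripts that were not assigned to it.

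**Figure D2:**
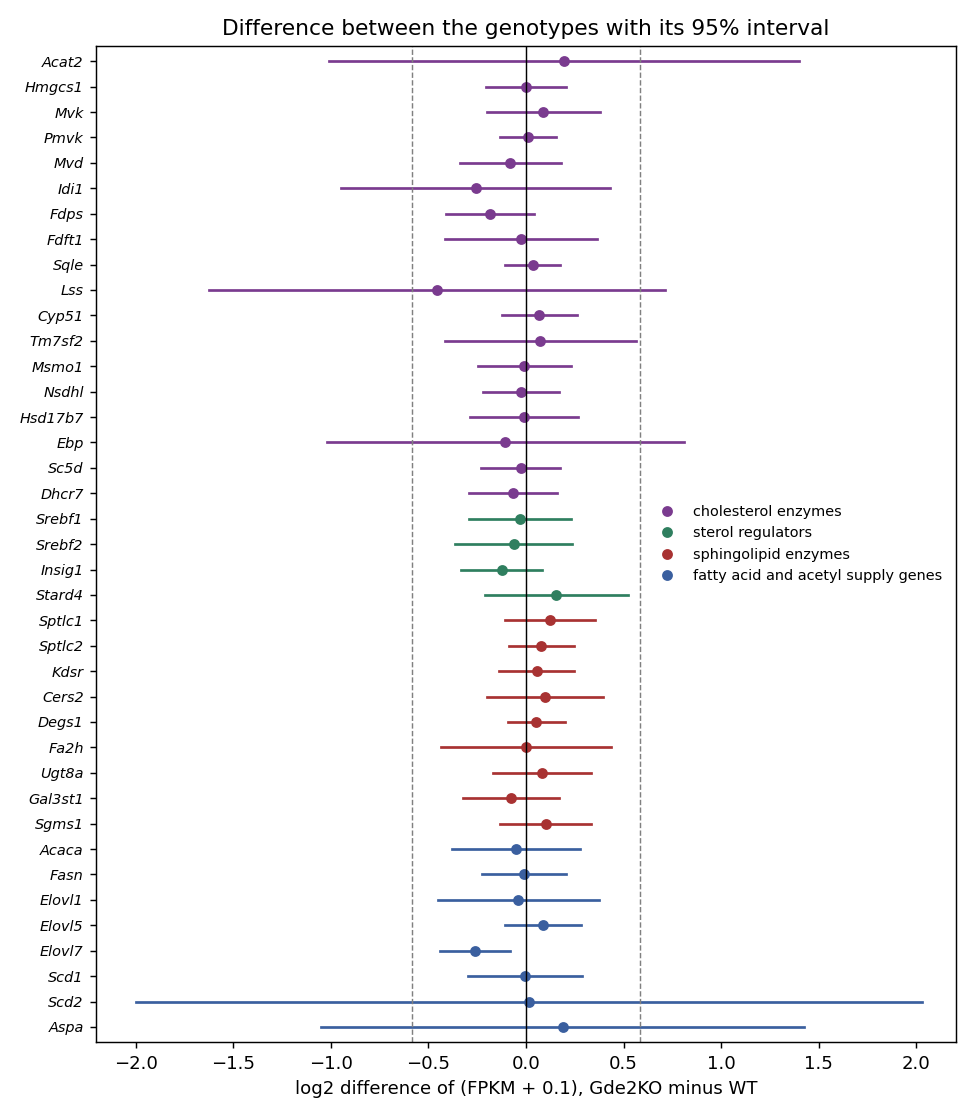
Log2 difference of FPKM + 0.1, Gde2KO minus WT, for the 39 genes, with points at the estimate, bars for the limma 95% interval, colour for the role and dashed lines at 1.5-fold either way. The interval of Elovl7 alone excludes 0, and 6 intervals reach past a dashed line, that of Scd2 from -2.00 to 2.03.

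Among the 4 sterol regulators, 1 was higher and 3 were lower in Gde2KO, and 0 passed. Srebf2, whose product SREBP-2 drives the cholesterol genes, had 50.9, 52.5 and 41.1 FPKM in WT libraries against 43.7, 50.7 and 43.7 in those of Gde2KO. The groups overlap, with a fold of 0.958 (0.778 to 1.18). Insig1, which retains the SREBP complex and is itself a target of SREBP factors, was the most abundant of the 4 and had the smallest p. It had 68.6, 58.98 and 69.99 FPKM in WT libraries against 59.5, 59.6 and 61.6 in those of Gde2KO, a fold of 0.917 (0.793 to 1.06). The 3 Gde2KO values lie between WT replicate 2 and the other WT libraries. Stard4, a cytosolic sterol carrier, was the least abundant. It ran from 8.62 to 10.8 FPKM in WT and from 9.31 to 12.9 in Gde2KO, a fold of 1.11 (0.864 to 1.43). The highest and the lowest of its 6 values were both in replicates 3, of Gde2KO and WT.

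Srebf1, whose product SREBP-1 drives fatty acid genes, had 19.9, 23.5 and 21.1 FPKM in WT libraries against 19.9, 23.7 and 19.6 in those of Gde2KO, a fold of 0.98 (0.818 to 1.17). It is read from a pair of starts with different first exons, the upstream one for SREBP-1a and the downstream one for SREBP-1c. The level at each first exon was taken over the 60 bases next to its splice site. At the downstream exon, chr11:60210336-60210465, it was 15.8, 20.4 and 18.1 FPKM in WT and 18.1, 23.6 and 19.8 in Gde2KO. At the upstream exon it was 8.47, 5.72 and 3.67 FPKM in WT and 6.14, 4.80 and 3.78 in Gde2KO. The downstream exon made up 65.1%, 78.1% and 83.2% of the sum in WT and 74.7%, 83.1% and 83.9% in Gde2KO. The means of 75.5% ± 9.34 and 80.6% ± 5.13 (SD, 3 libraries each) differ by less than the spread, and in all 6 libraries the downstream exon held the larger share. This start is the one whose promoter is printed above.

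**Figure D3:**
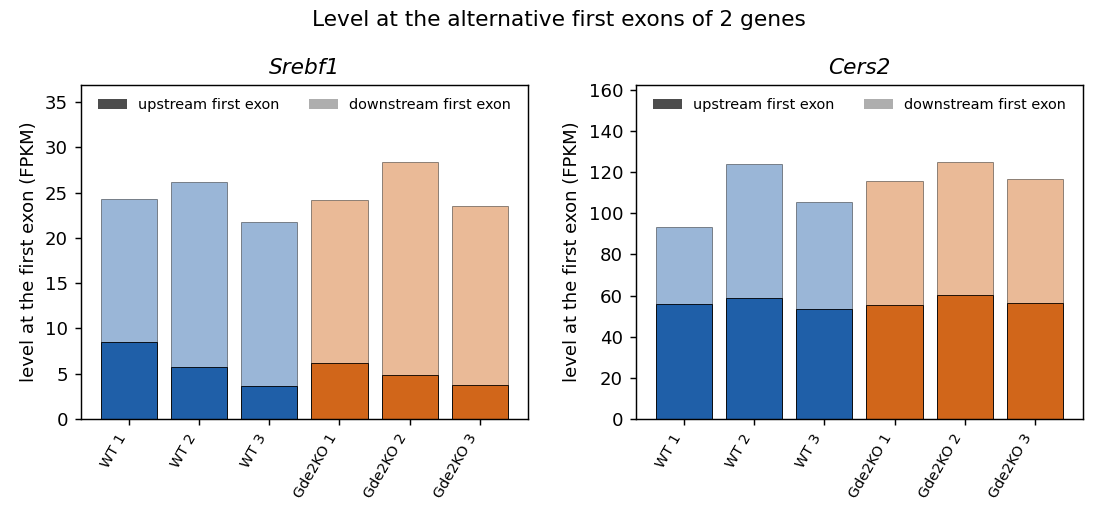
Level in FPKM at the upstream (dark) and downstream (light) first exons of Srebf1 and Cers2, stacked for each of the 6 libraries. The downstream exon of Srebf1 holds 65.1% to 83.9% of the sum, and the exons of Cers2 are near equal in every library but WT replicate 1.

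The 9 sphingolipid enzymes had 8 members higher and 1 lower in Gde2KO, with a median log2 difference of 0.08, and 0 passed. Without WT replicate 1, the library where these genes were lowest at the median, the median was 0.02. One of the 8, Fa2h, had a difference that rounds to 0.0. All 9 intervals lay within 1.5-fold. Serine palmitoyltransferase, which starts sphingolipid synthesis, is encoded in part by Sptlc1, the member of smallest p here. Sptlc1 had 11.7, 13.04 and 12.8 FPKM in WT libraries against 12.5, 13.3 and 15.2 in those of Gde2KO, a fold of 1.09 (0.926 to 1.28; limma adjusted p = 0.882). Its partner Sptlc2 ran from 8.06 to 9.16 and from 8.83 to 9.11 FPKM. Kdsr, the reductase of the next step, was the least abundant of all 39 genes. It had 4.54, 4.62 and 4.64 FPKM in WT libraries against 4.49, 4.65 and 5.24 in those of Gde2KO. Degs1, which places the double bond of ceramide, had a mean of 92.9 ± 2.89 FPKM in WT libraries against 96.4 ± 1.503 in Gde2KO libraries (SD, 3 libraries each). Sgms1, a sphingomyelin synthase, averaged 13.7 ± 1.498 and 14.7 ± 0.607 FPKM.

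Cers2, the ceramide synthase for very long acyl chains, had 85.5, 112.4 and 108.0 FPKM in WT libraries against 105.1, 113.8 and 106.1 in those of Gde2KO. WT replicate 1 lay below the other 5 libraries, and the fold was 1.07 (0.87 to 1.31). Cers2 too has alternative first exons. The downstream first exon of Cers2, chr3:95318792-95318953, was lowest in WT replicate 1 (37.6 FPKM) and between 52.01 and 65.1 elsewhere. The upstream first exon was at 53.5 to 60.2 FPKM in all 6. Fa2h, the fatty acid hydroxylase of myelin galactolipids, was the most abundant of the 9. It had 159, 208 and 209 FPKM in WT libraries against 199, 222 and 156 in those of Gde2KO, so each genotype held 1 low library, and the fold was 1.0 (0.74 to 1.35).

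Ugt8a, which makes galactosylceramide and is also a marker of oligodendrocytes, had 56.5, 64.8 and 68.4 FPKM in WT libraries against 61.3, 67.95 and 71.3 in those of Gde2KO. The fold was 1.06 (0.889 to 1.26). The assembled last exon of Ugt8a ran 5409 to 6779 bases past the annotated end of the gene. When fragments per gene were used, where the assembled length is no divisor and longer transcripts can hold more fragments, its libraries did not overlap and Gde2KO was higher, at a log2 difference of 0.21 (limma adjusted p = 0.856). The assembled transcript of Ugt8a was also longer in every Gde2KO library, 9806 to 10612 bases against 9217 to 9505 in WT, and the part of this length in the difference was not tested. By fragments per gene 2 of the 39 members had no overlap, against 10.7% of all genes. Gal3st1, which turns galactosylceramide into sulfatide, was the 1 lower member. It had 37.1, 46.4 and 42.3 FPKM in WT libraries against 37.8, 41.8 and 39.4 in those of Gde2KO, and the Gde2KO values lie inside the WT range.

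Of the 8 genes of fatty acid synthesis and acetyl supply, 3 were higher and 5 lower in Gde2KO, with a median log2 difference of -0.008, and 0 passed. Elovl7 (ENSMUSG00000021696.9, chr13:108214404-108285683, plus strand) encodes an elongase of long-chain acyl-CoAs and was the least abundant of the 8. It had 17.6, 18.9 and 18.6 FPKM in WT libraries against 14.2, 16.1 and 15.7 in those of Gde2KO, so every Gde2KO library was below every WT library in FPKM. The means were 18.4 ± 0.724 FPKM for WT against 15.3 ± 0.994 for Gde2KO (SD, 3 libraries each). The fold was 0.835 (0.738 to 0.944), with a limma p of 0.0119 that became 0.882 after adjustment over all genes. All counted bases of Elovl7 were assembled in all 6 libraries, and its last exon was 4568 to 4840 bases long in WT and 4586 to 4781 in Gde2KO. Its log2 difference was -0.26 as reported here and ran from -0.30 to -0.18 over the 21 alternative settings, and its smallest adjusted p among them was 0.784. By fragments per gene the genotypes of Elovl7 overlapped, from 110.1 to 127.0 in WT and from 98.6 to 111.2 in Gde2KO.

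Acaca and Fasn, which make malonyl-CoA and palmitate, overlapped between the genotypes in FPKM over counted bases. Acaca had 21.2, 24.5 and 23.6 FPKM in WT libraries against 24.1, 24.8 and 18.5 in those of Gde2KO, and in Gde2KO replicate 3, its lowest library, 73.9% of its counted bases were assembled, against 99.3% to 100% elsewhere. By the plain sum of transcripts Acaca had 22.5, 25.8 and 24.9 FPKM in WT libraries against 29.9, 30.6 and 26.95 in those of Gde2KO. There its genotypes did not overlap, as for 10.7% of all genes, with a log2 difference of 0.26 (limma adjusted p = 0.921). Fasn had 72.03, 71.5 and 74.8 FPKM in WT libraries against 65.98, 79.97 and 71.6 in those of Gde2KO, a fold of 0.993 (0.856 to 1.15). Elovl1, the elongase of very long saturated chains, had 65.4, 80.02 and 83.2 FPKM in WT libraries against 80.9, 83.4 and 59.5 in those of Gde2KO. As with Fa2h, WT replicate 1 and Gde2KO replicate 3 were its low libraries. Elovl5, an elongase of polyunsaturated chains, had a mean of 66.1 ± 3.59 FPKM in WT libraries against 70.2 ± 4.54 in Gde2KO libraries (SD, 3 libraries each). Scd1 (chr19:44394455-44407879, minus strand) had 195, 259 and 221 FPKM in WT libraries against 227, 229 and 212 in those of Gde2KO, a fold of 0.995 (0.813 to 1.22).

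Scd2 (chr19:44293674-44306864, plus strand) was the most abundant of the 39 genes and had the widest spread. It had 861, 1002 and 269.9 FPKM in WT libraries against 995, 1030 and 234 in those of Gde2KO, so replicate 3 of each genotype was low. In those libraries the longest assembled transcript ended in an exon of 51 and of 35 bases, against 3799 to 3864 in the other 4. Over the 1232 bases of Scd2 assembled in all 6 libraries, the level was 864, 1007 and 1079 FPKM in WT and 998, 1046 and 954 in Gde2KO. There the highest library was 1.25 times the lowest, against 4.41 times over all counted bases, and the log2 difference was 0.03 (limma adjusted p = 0.971).

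The extent of the assembly moved with the level for some other members too. At least 90% of the counted bases were assembled in every library for 25 members, and under 75% in some library for 6, which were Acat2, Idi1, Fdft1, Lss, Acaca and Scd2. The highest library was over 1.5 times the lowest for 7 members, Acat2, Idi1, Lss, Tm7sf2, Ebp, Scd2 and Aspa, and for Idi1, Lss and Scd2 it fell under 1.5 over the bases assembled in all libraries. Acat2, a thiolase at the head of the pathway, had 10.5, 28.5 and 29.6 FPKM in WT libraries against 29.2, 28.4 and 16.1 in those of Gde2KO. Its low libraries, WT replicate 1 and Gde2KO replicate 3, had 58.8% and 50.8% of its counted bases assembled, and over the bases assembled in all libraries WT replicate 1 was still low, at 19.8 FPKM against 30.2 to 32.2. Idi1, an isoprenoid isomerase, ran from 40.7 to 47.2 FPKM in 5 libraries and was at 23.4 in Gde2KO replicate 3, where 68.7% of its counted bases were assembled. Fdft1, which makes squalene, was lowest in WT replicate 1, at 52.7 FPKM with 51.7% assembled, and ran from 60.1 to 73.2 in the others. Lss, the cyclase that makes lanosterol, had 7.28, 16.4 and 15.9 FPKM in WT libraries against 15.03, 8.24 and 5.88 in those of Gde2KO. Its last exon held 850, 4196 and 4193 bases in WT and 4173, 804 and 56 in Gde2KO, so the 3 short assemblies were the 3 low libraries. Over the 2181 bases of Lss assembled in all libraries, the level was 15.5, 16.4 and 15.9 FPKM in WT and 14.9, 17.7 and 17.2 in Gde2KO. The log2 difference of Lss was -0.46 over all counted bases, 0.05 over the bases in all libraries and 0.41 with the plain sum of transcripts, with limma adjusted p-values of 0.882, 0.935 and 0.921. With the plain sum the genotypes of 6 members did not overlap, against 10.7% of all genes. Lss, Sptlc1, Degs1, Acaca and Elovl5 were higher in Gde2KO, and Elovl7 was lower.

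Aspa and Ebp kept their spread over the bases assembled in all libraries. Aspa encodes aspartoacylase, which releases acetate for lipid synthesis from N-acetylaspartate. It had 15.7, 30.9 and 31.9 FPKM in WT libraries against 15.9, 28.9 and 49.7 in those of Gde2KO, with replicate 1 of each genotype low. Those low libraries were the ones with a long last exon of Aspa, 1778 and 1822 bases, against 171 to 343 in the other 4. Ebp, a sterol isomerase, had 19.7, 20.2 and 11.1 FPKM in WT libraries against 20.95, 17.2 and 9.82 in those of Gde2KO. Its low libraries, replicate 3 of each genotype, had last exons of 3880 and 3938 bases, against 1290 to 1825 in the other 4. By fragments per gene the highest library was 1.27 times the lowest for Ebp and 1.69 times for Aspa, against 2.13 and 3.16 times in FPKM. The part of assembled length in these levels was not tested further.

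**Figure D4:**
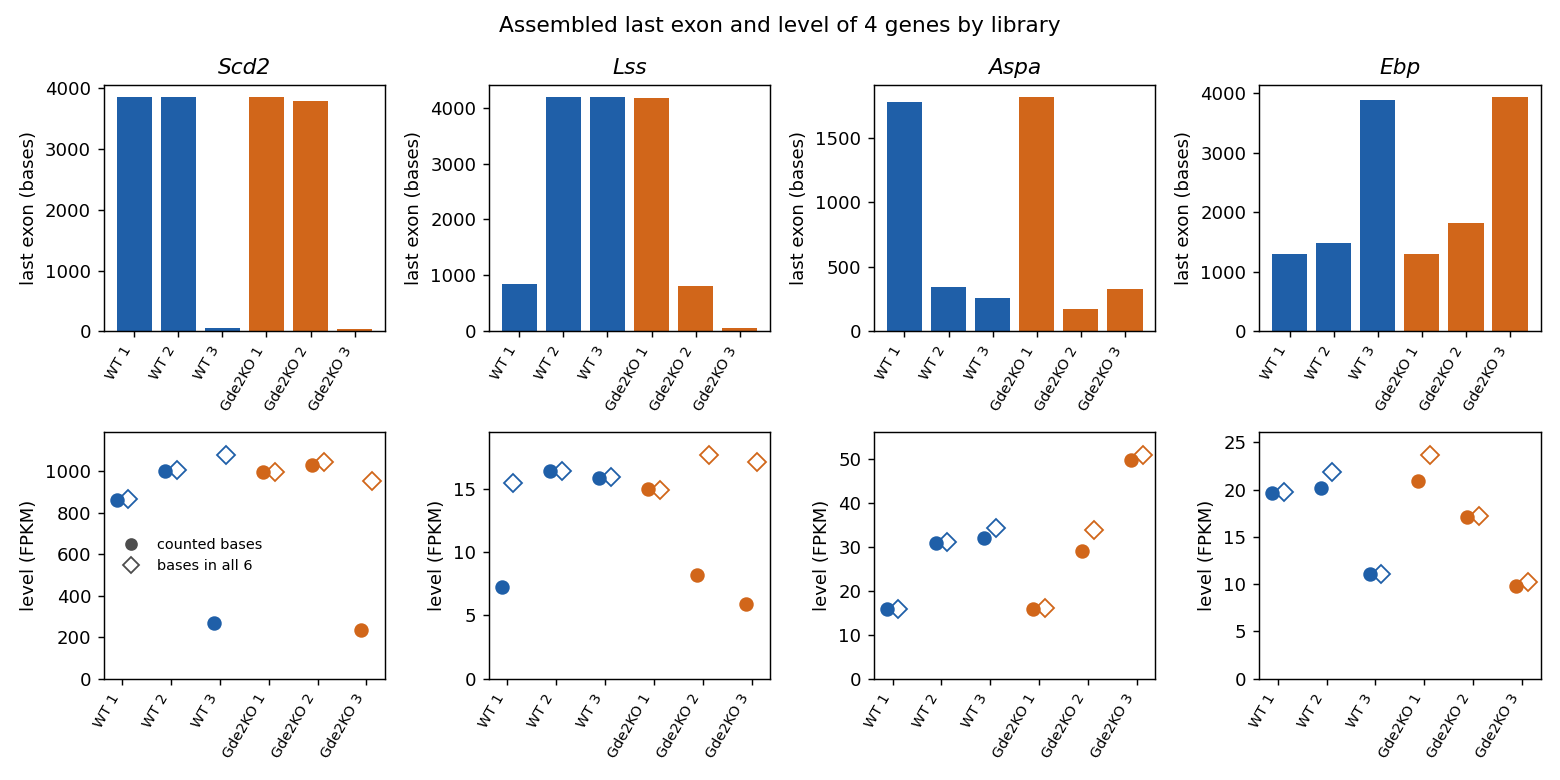
Length in bases of the final exon of the longest transcript assembled (top) and level in FPKM (bottom) of Scd2, Lss, Aspa and Ebp in each library, over counted bases (filled circles) and over bases assembled in all 6 libraries (open diamonds). Scd2 and Lss are low where the last exon is short and level out over common bases, and Aspa and Ebp are low where it is long.

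The libraries in which members were lowest or highest did not follow genotype. WT replicate 1 was the lowest of the 6 libraries for 14 members, or 35.9%, against 19.02% of all genes tested, and the highest for 1. WT replicate 2 was the highest for 14 members, against 14.96% of all genes, and the lowest for 3. Gde2KO replicate 3 was the lowest for 10 members and the highest for 7, or 25.6% and 17.9%, against 25.4% and 26.8% of all genes. The summed level of 10 oligodendrocyte markers, of which Ugt8a is also a member, was lowest in WT replicate 1, which had 6702 FPKM where the others had 7865 to 9760. All 10 markers were detected, and the sum ran from 6702 to 9708 FPKM in WT and from 7865 to 9760 in Gde2KO. Of the 10 markers 6 were higher and 4 lower in Gde2KO, with a median log2 difference of 0.02, and 0 passed the test. The differences ran from -0.22 for Opalin to 1.37 for Mobp, whose genotypes overlapped. Opalin alone had no overlap, or 10% of the markers against 10.9% of all genes. It had 82.3 to 93.3 FPKM in WT and 71.9 to 79.1 in Gde2KO (limma unadjusted p = 0.0306, adjusted 0.882). The genotypes overlapped in the summed level of every marker list examined. Single markers could still lean to one side. All 5 astrocyte markers were higher in Gde2KO, and all 4 endothelial and all 5 meningeal markers were lower, with 0 passing. The oligodendrocyte, precursor, Schwann cell, neuron and microglia lists held both directions. Whether oligodendrocyte content has a part in the member levels was not tested.

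Schwann cells and fat cells use many of these genes, and their markers were examined for tissue carried along with the cord. The summed level of 6 Schwann cell markers ran from 211 to 349 FPKM in WT and from 131 to 360 in Gde2KO, lowest in Gde2KO replicate 1. The 5 meningeal markers summed to 63.1 to 82.7 FPKM in WT and 30.7 to 71.8 in Gde2KO, again lowest in Gde2KO replicate 1. Each of the 5 was lower in Gde2KO, at a median log2 difference of -0.52, and 0 passed the test. Of 6 fat cell markers only Plin4 had a level, 0.405 to 2.26 FPKM, and Adipoq, Plin1, Cidec, Retn and Lep had no counted bases, that is, no base assembled in 3 or more libraries, so no level was obtained for them. The part of any such tissue in the levels of the members was not tested.

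Of 26 other genes of cholesterol synthesis and sterol sensing, 25 were tested, 15 higher and 10 lower in Gde2KO, and 0 passed. The 3 of smallest p were Cyb5r3, Cyp46a1 and Nr1h2, all lower. Cyb5r3, a reductase that passes electrons to sterol and acyl desaturation, had 61.9, 65.7 and 33.1 FPKM in WT libraries against 33.4, 34.05 and 29.5 in those of Gde2KO, with WT replicate 3 beside the Gde2KO libraries (log2 difference -0.67, limma adjusted p = 0.882). Cyp46a1, the neuronal enzyme that turns cholesterol over, had a log2 difference of -0.25 and Nr1h2, a sterol-sensing nuclear receptor, of -0.13.

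Of 33 other sphingolipid genes, 31 were tested, 19 higher and 12 lower, and 0 passed. Cerk, ceramide kinase, had 25.8, 28.5 and 28.6 FPKM in WT libraries against 30.6, 29.95 and 31.1 in those of Gde2KO, all above WT (log2 difference 0.15, limma adjusted p = 0.882). Psap, which encodes the activators of sphingolipid breakdown, had a log2 difference of 0.31, which was -0.05 over bases assembled in all libraries. Of 34 other fatty acid genes, 32 were tested, 17 higher and 15 lower, and 0 passed. Nat8l, which makes the N-acetylaspartate that Aspa splits, had 4.90, 95.6 and 4.70 FPKM in WT libraries against 109.7, 111.4 and 144.7 in those of Gde2KO (log2 difference 3.20, 95% interval -0.01 to 6.41, limma adjusted p = 0.882). In the low WT libraries 21.8% of the counted bases of Nat8l were assembled, against 99.3% to 100% in the other 4. Over bases assembled in all libraries Nat8l had 22.6, 105.1 and 21.6 FPKM in WT libraries against 110.0, 111.7 and 42.8 in those of Gde2KO, where the genotypes overlap. Acss1, a mitochondrial acetyl-CoA synthetase, and Hsd17b12, a reductase of fatty acid elongation, were higher in every Gde2KO library than in any WT library, at log2 differences of 0.13 and 0.16. In these 3 lists 2, 4 and 3 genes had no overlap between the genotypes, or 8%, 12.9% and 9.38% of those tested, against 10.9% of all genes. Among listed genes that were not tested, Sptlc3 and Scd4 had no counted bases, Scd3 had 63, and Cert1 is an alternative symbol of the listed Col4a3bp.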

How the data were processed

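RNA sequencing libraries of poly-A RNA from 3 WT and 3 Gde2KO samples were analysed. Per the submitters' processing notes, FastQC, TopHat2 2.1.1, Cufflinks 2.2.1 and Cuffdiff 2.2.1 were used with build mm10. The deposited files are one Cufflinks assembly per library, with FPKM values made by the authors. Their transcripts were matched to GENCODE vM21 (GRCm38) by exon overlap. Each gene was read at its counted bases, meaning exonic positions that belong to no other same-strand gene and that transcripts of at least 200 bases cover in 3 or more libraries. At every such position the FPKM of all transcripts there were added, and the gene's level is the mean of these sums. Tests covered the 12894 genes that had 200 or more counted bases and averaged 1 FPKM or more, after scaling by median of ratios (0.989 to 1.04). Tests used limma 3.58.1 (R 4.3.3) on log2(FPKM + 0.1), with trend and robust moderation, two-sided, Benjamini-Hochberg adjustment and a threshold of 0.05. The pseudocount of 0.1 understates changes of low genes. The test was also run on simulated data with independent normal noise for each gene at its own spread. That setting lacks the drops seen where an assembly was short, and its outcome is not given here. The files give no fragment counts, so relative depth was taken from coverage and FPKM. With 3 libraries against 3, an exact permutation test cannot reach the threshold, so none is given.

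Per-library values are printed for members without overlap or with an unadjusted p under 0.05, for the highest, lowest and smallest-p member of each role, and for a set of 15 chosen genes; of other lists, the 3 of smallest p are named. Acat2, Idi1, Lss, Ebp and Fdft1 were singled out after their values were seen. Some genes that the rule names are left out of the text. Cert1 in the sphingolipid list matched no annotated symbol. The members and lists were chosen with earlier results of these data known. Promoters are from RefSeq on GRCm38.p6. All libraries carry the same flow cell and lane in the labels, which leaves no sequencing batch to compare. The labels give no batch of dissection or library preparation, so differences of that kind could not be examined.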

Additional observations from a re-analysis of the deposited data

How the results depend on the processing

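Under all 21 alternative settings 0 members passed, and the smallest limma adjusted p of a member in any of them was 0.688; with a mean FPKM of at least 5, Kdsr was not tested. The sign of the difference held in all of them for 12 members and turned in some for 27. The medians of the member lists moved by less than the spread between libraries. Without single libraries they ran from -0.04 to 0.04 for all members, -0.05 to 0.04 for cholesterol enzymes, -0.12 to 0.02 for sterol regulators, 0.02 to 0.10 for sphingolipid enzymes and -0.11 to 0.06 for fatty acid genes. The count over all genes, 15 in the fit as reported, was 8 with fragments per gene, 4 over bases assembled in all 6 libraries, 4 with a pseudocount of 0.01, 4 with 0 treated as missing and 1 with a mean FPKM of at least 5. Leaving out single libraries gave 10 to 26, with 26 without WT replicate 2 and 25 without Gde2KO replicate 2 or Gde2KO replicate 3. Nothing in the labels pairs the libraries by replicate number. Same-numbered libraries had correlations of 0.01, 0.04 and -0.07 in their deviations from the group means, which cannot show that pairing is absent. The fit with a replicate block made 2 calls. The cause of these changes was not tested. Without scaling, the median over all genes shifted by -0.03, and members moved with it. The number of libraries and the extent of each assembly limit what could be seen.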
